A study of Cucumis sativus with 8 samples.

Results

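Csa4G063470 and Csa4G063480 are genes of cucumber (Cucumis sativus) with consecutive identifiers on chromosome 4, both annotated as relatives of NPR1. They are 2 of the 17783 genes in the deposited table, found there by identifier and with no threshold on their values, and both passed the filter on low values that 17778 genes passed. The annotation used in the study names Csa4G063470 NPR1-like protein 3, after its best Arabidopsis match NPR3, and Csa4G063480 NPR1-like protein 4, after NPR4. The study also calls Csa4G063470 NPR1 in its quantitative PCR.

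RNA was sequenced from midveins cut from the youngest expanded leaves and from young fruits taken 4 d before anthesis. In each tissue, plants carrying an RNAi construct against a bHLH transcription factor gene (called CsIND in the labels and *CsIVP* in the study), here RNAi, were compared with WT, both of the inbred line R1461. The 4 groups were RNAi vein, WT vein, RNAi fruit and WT fruit, with 2 biological replicates each and 8 libraries in all. The RNAi plants were of a single transgenic line, so an effect of the construct and one of that line cannot be told apart, and no treatment or inoculation of the sequenced plants is named.

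NPR1 of Arabidopsis is a salicylic acid receptor that works as a coactivator: with TGA transcription factors it switches on defense genes such as the pathogenesis-related genes. NPR3 and NPR4 of Arabidopsis also bind salicylic acid, and they act as transcriptional corepressors of defense genes and as adaptors of a ubiquitin ligase. All of them have an ankyrin repeat region and a BTB domain. These roles are known from Arabidopsis, and what the cucumber proteins do was not measured here.

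The study measured Csa4G063470 by quantitative PCR with a primer pair, shown because it defines which transcript carries the name NPR1. Both are in lower case with no part marked, and where they bind was not analysed here.
CsNPR1-Q-F: ctccaagttttgcctcgtcg
CsNPR1-Q-R: tctgaaagccaccaacttagacat
The forward primer has 20 bases with 55.0% G or C, and the reverse primer has 24 bases with 41.7% G or C.

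The libraries held 18088985 to 22979345 reads on genes, and 1 read was worth 0.0435 to 0.0553 RPM (reads scaled to a common library total). The replicates were not equally close in all groups: the RNAi vein libraries were over 2-fold apart in 2650 genes, against 80 for WT vein, 419 for RNAi fruit and 283 for WT fruit. The gene targeted by the construct, *CsIVP* (Csa6G483450), drew 0 reads from any vein library, a count that by counting error alone allows levels of up to 0.145 to 0.166 RPM. RNAi fruit had 42.3 and 52.1 RPM of it and WT fruit 50.0 and 38.3 RPM. Its level therefore does not tell the RNAi libraries from the WT libraries, and every direction below rests on their labels. Outside these libraries, the study reports less *CsIVP* transcript by quantitative PCR and less of its protein by immunoblot in its RNAi lines, the sequenced line included. Of 8 vascular genes, all had reads in every group, and their summed level was 135 to 147 RPM in RNAi vein, 139 to 161 RPM in WT vein, 158 to 161 RPM in RNAi fruit and 141 to 175 RPM in WT fruit. Outside RNAi vein that sum rests mostly on a SEOR1 gene (Csa2G193340), and the members moved in different directions: this SEOR1 was at 23.5 and 19.5 RPM in RNAi vein and 109 and 89.4 RPM in WT vein, and APL at 27.5 and 39.9 RPM in RNAi vein and 9.34 and 10.7 RPM in WT vein. The xylem genes IRX6 and laccase 17 were higher in all 4 vein libraries than in any fruit library. Laccase 11 was not, at 1.88 and 0.964 RPM in WT vein and 1.00 to 1.66 RPM in fruit. APL, PP2-A14 and the SEOR1 gene Csa1G002870 were lower in both WT vein libraries than in any fruit library.

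Both genes were higher in RNAi vein than in WT vein, by nearly the same fold. Csa4G063470 was at 61.5 and 33.0 RPM in RNAi vein, against 15.1 and 16.97 RPM in WT vein, and these values rest on 1134 and 627 reads in RNAi vein and 274 and 352 reads in WT vein. Csa4G063480 was at 68.9 and 37.8 RPM in RNAi vein, against 16.0 and 19.5 RPM in WT vein, from 1271 and 717 reads in RNAi vein and 290 and 404 reads in WT vein. For each gene both RNAi vein libraries lay above both WT vein libraries, as they did for 45.1% of all genes tested, and replicate 1 of RNAi vein was 1.86-fold and 1.83-fold above replicate 2. RNAi vein replicate 1 was 3.83-fold above the WT vein mean for Csa4G063470 and 3.88-fold above it for Csa4G063480, while replicate 2 was 2.06-fold and 2.13-fold above it. In bulk tissue, more cells that express a gene and more RNA per cell cannot be told apart.

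**Figure D1:**
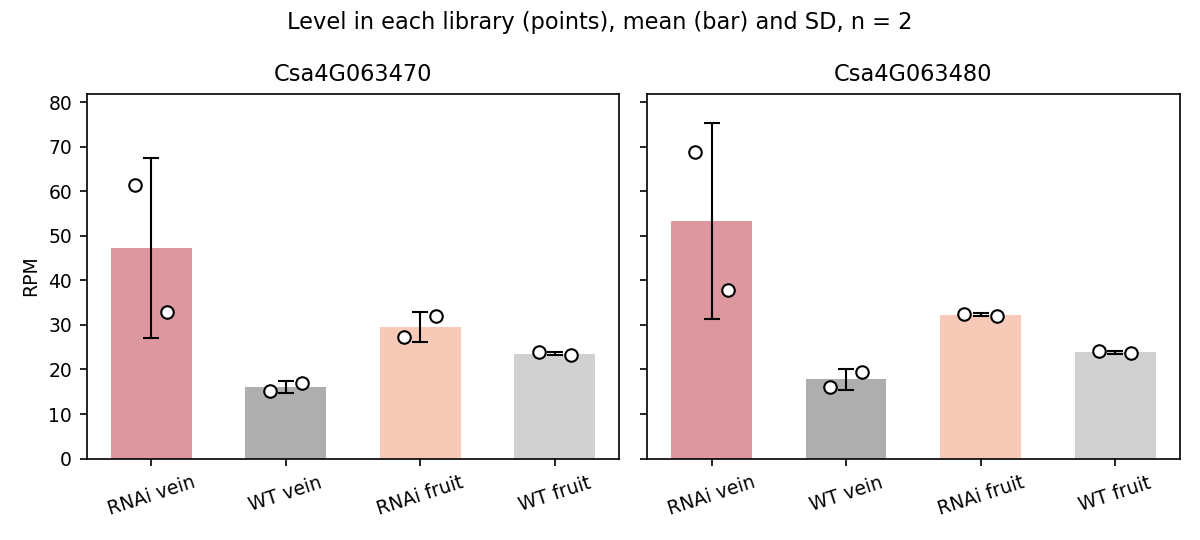
RPM of Csa4G063470 (left) and Csa4G063480 (right) in the 4 groups. Points are libraries, replicate 1 left of replicate 2, bars are means and error bars are SD (n = 2). In both panels the RNAi vein libraries are the highest and the WT vein libraries the lowest, and the RNAi vein replicates are the furthest apart.

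Csa4G063470 averaged 47.3 ± 20.1 RPM in RNAi vein and 16.1 ± 1.29 RPM in WT vein (SD, n = 2 each). Its log2 fold change, on the log2(RPM + 0.5) scale, was 1.46 (standard error 0.28, 95% interval 0.80 to 2.12, adjusted p = 0.00815 from limma), or 2.76-fold. Csa4G063480 averaged 53.4 ± 22.0 RPM in RNAi vein and 17.8 ± 2.44 RPM in WT vein (SD, n = 2 each). Its log2 fold change was 1.50 (standard error 0.27, 95% interval 0.86 to 2.15, adjusted p = 0.00665 from limma), or 2.84-fold. Thus 2 of the 2 genes were called higher (adjusted p under 0.05 and at least 2-fold), a call that 14% of all genes tested received, and none was called lower, against 5.14%.

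These folds were well inside the range of all genes: 9.16% of genes had a larger log2 fold change than Csa4G063470 and 8.82% a larger one than Csa4G063480. The typical gene was itself shifted in vein, with a median log2 fold change of 0.20, and it became -0.04 once library totals were adjusted by TMM, a scaling that sets most genes near no change. Relative to that median the genes were higher by 1.26 and 1.30 (log2) with RPM scaling and by 1.25 and 1.29 with TMM scaling. TMM divides each library by a constant, so apart from the added 0.5 RPM this distance could not change. With TMM scaling 10.2% of genes were called higher, and 55.0% of the called genes were higher, against 73.2% with RPM scaling.

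The vein calls were not kept under every setting. They were lost when the vein libraries were fitted without the fruit libraries (log2 1.46 and 1.50, adjusted p = 0.0642 and 0.0609 from limma), and without WT vein replicate 1 (1.38 and 1.37, adjusted p = 0.0628 and 0.0572). With 2 libraries on each side, the smallest two-sided p of an exact permutation test is 0.333.

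**Figure D2:**
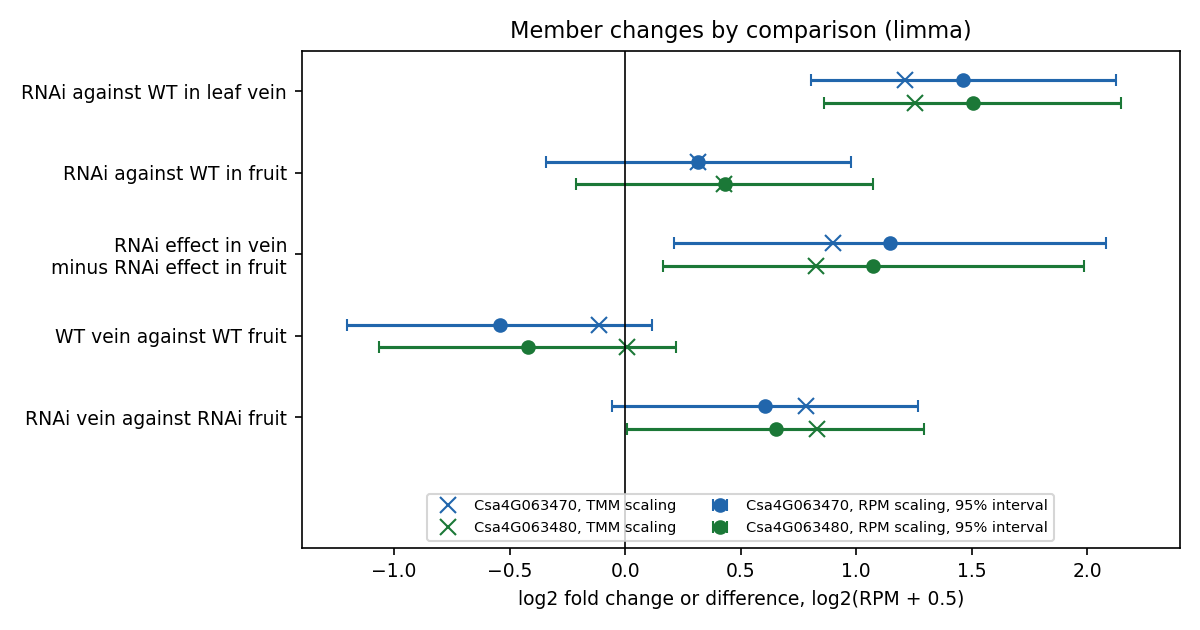
log2 fold changes of both genes in 4 comparisons, and the difference between the RNAi effects of the tissues, with limma's 95% intervals (circles, RPM scaling) and the values with TMM scaling (crosses). The vein comparison gave 1.46 and 1.50, and the fruit comparison 0.32 and 0.43 with intervals that include 0.

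Other transcripts also differed between the vein libraries, some of them in the direction opposite to the pair's. The summed level of 5 light-harvesting genes was 1324 and 12040 RPM in RNAi vein replicates 1 and 2, against 23882 and 21815 RPM in WT vein, so the library highest in the NPR1-like genes was the lowest in these photosynthesis genes. The 3 floral and fruit genes summed to 46.0 to 78.6 RPM in RNAi vein and 21.4 to 23.9 RPM in WT vein, most of it AGAMOUS-like 8, with *CsIVP* at 0 in all 4 libraries and LEAFY at 0 to 0.158 RPM in RNAi vein and 0.916 to 1.49 RPM in WT vein. Whether these differences have a part in the result was not tested.

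In fruit the difference between genotypes was small. Csa4G063470 was at 27.2 and 31.9 RPM in RNAi fruit, against 23.9 and 23.3 RPM in WT fruit. Csa4G063480 was at 32.6 and 32.0 RPM in RNAi fruit, against 24.1 and 23.6 RPM in WT fruit. For both genes the 2 RNAi libraries lay above the 2 WT libraries, with no overlap, as they did for 23.2% of all genes tested. The group means were 29.6 ± 3.30 RPM in RNAi fruit and 23.6 ± 0.373 RPM in WT fruit for Csa4G063470, and 32.3 ± 0.371 RPM in RNAi fruit and 23.9 ± 0.318 RPM in WT fruit for Csa4G063480 (SD, n = 2 each).

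The limma fit shares 1 estimate of the spread between the tissues, and in it neither fruit difference passed. The log2 fold change was 0.32 for Csa4G063470 (standard error 0.28, 95% interval -0.34 to 0.98, adjusted p = 1.00) and 0.43 for Csa4G063480 (standard error 0.27, 95% interval -0.21 to 1.07, adjusted p = 0.993). Of the 2 genes, 0 were called higher, against 0.422% of all genes tested, and 0 were called lower, against 0.0506%. The unadjusted limma p values were 0.293 and 0.156, with a spread to which the widely spaced RNAi vein replicates contribute. In a fit of the fruit libraries alone they were 0.0413 and 0.00547 (adjusted p = 0.322 and 0.127 from limma), so both were then under 0.05 before adjustment and neither after it. Leaving out an RNAi vein library likewise gave unadjusted limma p values of 0.0306 to 0.0329 for Csa4G063470 and 0.00697 to 0.00759 for Csa4G063480. Both edgeR tests and DESeq2 on the recovered reads also called 0 of the 2 in fruit.

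Over both tissues, all 4 RNAi libraries lay above all 4 WT libraries for both genes. The lowest RNAi library was at 27.2 RPM for Csa4G063470 and 32.0 RPM for Csa4G063480, and the highest WT library at 23.9 RPM and 24.1 RPM. This order was found for 8.68% of all genes tested and the opposite order for 1.56%, and it also held for both genes with TMM scaling.

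The RNAi effect was compared between the tissues directly. The difference in log2 fold change, vein minus fruit, was 1.15 for Csa4G063470 (standard error 0.39, 95% interval 0.21 to 2.08) and 1.07 for Csa4G063480 (standard error 0.38, 95% interval 0.16 to 1.98). It was not called for either gene after adjustment (adjusted p = 0.103 and 0.112 from limma), against 8.27% of all genes called higher and 3.16% called lower. The call depended on the RNAi vein libraries. Without RNAi vein replicate 1 the differences were 0.70 and 0.64 (adjusted p = 0.0291 and 0.0367 from limma), and without RNAi vein replicate 2 they were 1.59 and 1.50 (adjusted p = 0.000648 and 0.000752). The lone library of that group was then assumed to vary like the other groups.

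Between tissues the RPM values of the pair ran in opposite directions in the 2 genotypes, though not for Csa4G063480 under other scalings, given below. In RNAi plants both vein libraries were above both fruit libraries for each gene, an order that 23.7% of genes shared, while 44.1% had the opposite order. The lower vein library was close to fruit, with 33.0 RPM of Csa4G063470 in RNAi vein replicate 2 and 31.9 RPM in RNAi fruit replicate 2. The log2 difference between RNAi vein and RNAi fruit was 0.60 for Csa4G063470 (standard error 0.28, adjusted p = 0.123 from limma) and 0.65 for Csa4G063480 (standard error 0.27, adjusted p = 0.0957), and neither was called, against 8.36% of genes called higher and 14.1% called lower. With TMM scaling these were 0.78 and 0.83 (adjusted p = 0.0347 and 0.0264), under 2-fold. Without RNAi vein replicate 1 they were 0.16 and 0.22 (adjusted p = 0.372 and 0.217), and without RNAi vein replicate 2 they were 1.05 and 1.08 (adjusted p = 0.000840 and 0.000667), when both were called.

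In WT plants both vein libraries were below both fruit libraries for each gene, as for 67.1% of all genes tested. The log2 difference between WT vein and WT fruit was -0.54 for Csa4G063470 (standard error 0.28, adjusted p = 0.133 from limma) and -0.42 for Csa4G063480 (standard error 0.27, adjusted p = 0.214), and neither was called, against 7.45% of genes called higher and 22.7% called lower. In a fit of the WT libraries alone both fell under an adjusted p of 0.05 (0.00320 and 0.0165 from limma), but not past 2-fold. The median of all genes was -0.51 here and became -0.09 with TMM scaling. Relative to that median the genes differed by -0.04 and 0.08 with RPM scaling, that is, they moved as the typical gene did. With TMM scaling the log2 differences were -0.11 for Csa4G063470 and 0.01 for Csa4G063480, so the direction of Csa4G063480 was reversed, its WT vein libraries (20.0 and 23.2 RPM after TMM) then lying on both sides of its WT fruit libraries (21.4 RPM each). With TMM scaling 50.0% of the called genes were higher in WT vein, against 24.7% with RPM scaling.

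By mean RPM the order of the groups was the same for both genes, with RNAi vein first, then RNAi fruit, WT fruit and WT vein. No neighbours in this order were called different: RNAi vein and RNAi fruit, RNAi fruit and WT fruit, and WT fruit and WT vein all missed the call above. Of the 4 pairs of groups compared, the call was made for RNAi vein against WT vein.

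The genes followed each other closely from library to library. Pearson's r between their log2(RPM + 0.5) values was 0.99 over 8 libraries, a description that includes the differences between groups. The ratio of Csa4G063480 to Csa4G063470 was 1.12 and 1.14 in RNAi vein, 1.06 and 1.15 in WT vein, 1.20 and 1.00 in RNAi fruit, and 1.01 and 1.01 in WT fruit. The RPM values are not per length of transcript, so this ratio does not say which gene was more expressed, only whether the balance shifted. The widest gap was between the RNAi fruit replicates, and the groups overlapped.

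No shift of the balance beyond the spread between libraries was found. The log2 ratio averaged 0.16 ± 0.05 in vein and 0.07 ± 0.12 in fruit (SD, n = 4 each), a difference of 0.09 with an exact permutation p of 0.257 (two-sided). It averaged 0.16 ± 0.11 in RNAi and 0.08 ± 0.09 in WT (SD, n = 4 each), a difference of 0.08 with an exact permutation p of 0.400. After Benjamini-Hochberg adjustment over these 2 comparisons both were at p = 0.400 by the exact permutation test. Groups of 4 allow a p as small as 0.0286.

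Counting error alone was of this size. Csa4G063480 took 52.1% of the reads on the pair over all libraries, and between 50.1% (RNAi fruit replicate 2) and 54.5% (RNAi fruit replicate 1) in single libraries. The exact 95% binomial intervals were 47.4% to 52.8% and 51.5% to 57.4% in those libraries, and in 8 of 8 libraries the interval held the pooled share. The intervals cover counting error only. Whether the genes share stretches of sequence was not analysed here, and if they do, the counting of reads that match both could couple their values.

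**Figure D3:**
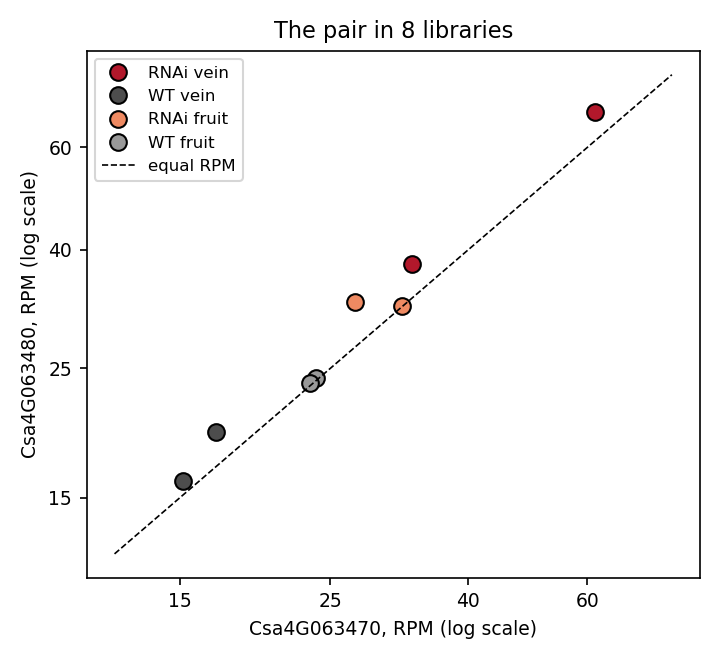
RPM of Csa4G063480 against Csa4G063470 in 8 libraries, both on log axes. The dashed line marks equal RPM. The points follow the line from WT vein (15.1 and 16.0 RPM in replicate 1) to RNAi vein (61.5 and 68.9 RPM in replicate 1), with ratios of 1.00 to 1.20.

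Such a match was uncommon among genes with consecutive identifiers, a comparison chosen after the values had been seen. Over 6761 pairs of genes whose identifiers are 10 apart and which both averaged at least 10 RPM, the median r was 0.29 and the median SD of the log2 ratio over the 8 libraries 0.62. The NPR1-like pair had an SD of 0.10, and 0.887% of pairs had one as small, while 0.740% of pairs had an r as high. All pairs share the same 8 libraries and their replicate gaps.

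The genes nearest the pair were examined as well. Of the 10 measured genes closest in identifier order, 5 on each side, limma called 0 higher and 0 lower in vein, beside 14% and 5.14% of all genes, with 3 at an unadjusted p under 0.05, beside 47.4%. In fruit it called 0 higher and 0 lower, beside 0.422% and 0.0506%, with 0 at that p, beside 6.81%. With 10 genes these counts do not set the neighbours apart from other genes. Both edgeR tests and DESeq2 called 0 of the 10 in each tissue. Their log2 fold changes in vein ranged over -1.30 to 0.96 with a median of -0.18, with 5 of 10 above 0, and in fruit over -0.39 to 0.40 with a median of 0.00. The gene next to the pair on the lower side, Csa4G063460, named here after its values were seen, was at 5.64 and 9.59 RPM in RNAi vein and 10.1 and 9.21 RPM in WT vein. On the upper side the next measured gene, Csa4G063980, likewise named afterwards, was at 31.5 and 130 RPM in RNAi vein and 149 and 134 RPM in WT vein. The order is that of the identifiers, and distances between the genes were not analysed here.

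**Figure D4:**
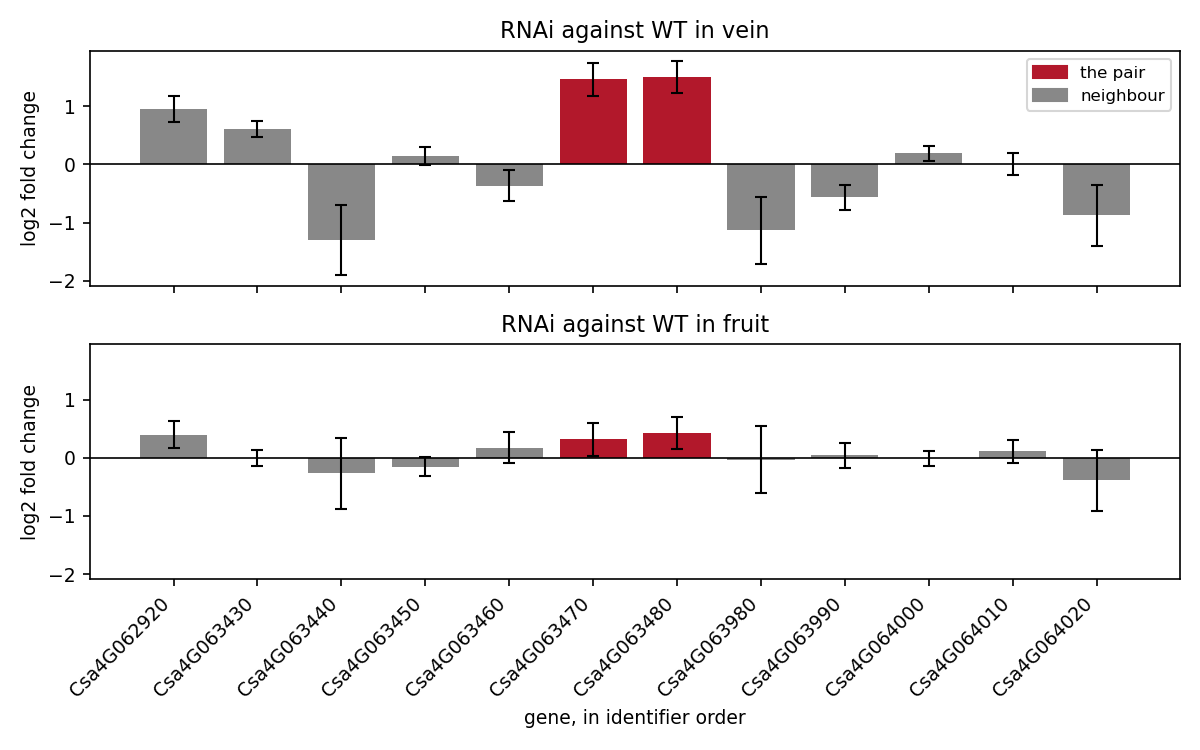
log2 fold change of RNAi against WT in vein (top) and fruit (bottom) for the pair (red) and the 5 measured genes on each side in identifier order (grey). Error bars are limma's standard errors. The pair stands at 1.46 and 1.50 in vein, and the neighbours lie between -1.30 and 0.96.

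Many other genes had a profile like the pair's. Among 12943 other genes averaging at least 10 RPM, 902 had an r of at least 0.9 with the mean profile of the pair over 8 libraries, and the median r was 0.20. By r with Csa4G063470, Csa4G063480 was number 20 of the genes compared, and by r with Csa4G063480, Csa4G063470 was number 12. The 5 most alike had r of 0.99 to 1.00. Csa3G144110, annotated as a protein kinase with a LysM domain, was at 290.0 and 80.4 RPM in RNAi vein, 15.1 and 21.5 RPM in WT vein, 48.0 and 59.8 RPM in RNAi fruit, and 32.7 and 32.4 RPM in WT fruit. LysM domains bind chitin and related sugars, and in Arabidopsis several LysM receptor kinases sense them. Csa2G011470, annotated as a calcium-binding EF hand protein, was at 94.7 and 41.8 RPM in RNAi vein, 15.7 and 18.9 RPM in WT vein, 30.0 and 35.4 RPM in RNAi fruit, and 25.0 and 24.9 RPM in WT fruit. The others were Csa2G070870, Csa4G106870 and Csa5G373710, with log2 fold changes of RNAi against WT in vein of 1.18, 0.99 and 0.86. For Csa4G106870 and Csa5G373710 this is under 2-fold. Their annotations are not given here, so no common function is read from the 5. All 5 share the high RNAi vein replicate 1 with the pair.

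The salicylic acid genes that the pair's relatives work with in Arabidopsis were followed through 23 cucumber genes, chosen by their best Arabidopsis match. They were drawn from the study's list of genes changed in these vein libraries, so neither their vein counts nor their tissue differences are independent evidence of a direction. In vein 21 of 23 were called higher and 0 lower, beside 14% and 5.14% of all genes, with a median log2 fold change of 2.66, beside 0.20 for all genes. In fruit, whose libraries did not enter that choice, limma called 0 higher and 0 lower, with a median of 0.85, beside -0.01 for all genes, and 21 of 23 had a log2 fold change above 0. At an unadjusted p under 0.05 there were 12 of 23 in fruit, beside 6.81% of all genes, and 9 of the 12 are phenylalanine ammonia-lyase genes. For these fruit counts all genes are not a like background, since the list holds genes changed in vein of the same transgenic line. After adjustment edgeR's quasi-likelihood test called 0, its exact test 3 higher, beside 1.83% of all genes, and DESeq2 6 higher, also beside 1.83%. The tissue difference, which the choice of the list favours, was called for 10 of 23, all with the larger RNAi effect in vein, beside 8.27% of all genes. The pair's changes in vein, 1.46 and 1.50, were below the median of the list.

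TGA factors include the DNA-binding partners of NPR1, and 3 of the 4 on the list were called higher in vein, beside 14% of all genes. Like each vein count by role below, this comes from genes chosen for change in vein and is not independent evidence. Whether each of the 4 pairs with an NPR1-like protein was not tested. Csa3G819960, whose best match is TGA6, was at 74.6 and 91.4 RPM in RNAi vein, against 30.2 and 25.7 RPM in WT vein (log2 1.55, standard error 0.15, adjusted p = 0.000797 from limma). In fruit the same gene was at 57.5 and 57.5 RPM in RNAi and 51.4 and 46.2 RPM in WT (log2 0.24, adjusted p = 0.993). Csa6G031950, called higher in vein at 2.66 and 4.37 RPM in RNAi against 1.33 and 1.25 RPM in WT, matches PERIANTHIA, which is known for its work in floral organ number. Csa6G152350, which matches TGA9, was not called in vein (log2 1.35, adjusted p = 0.121 from limma). With TMM scaling 2 of 4 were called. In fruit 0 of 4 were called by limma, edgeR or DESeq2, with 0 at an unadjusted p under 0.05.

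EDS1 and PAD4 form a complex that raises salicylic acid production in Arabidopsis. Both matches, drawn from the list chosen for change in vein, were called higher there, beside 14% of all genes. Csa1G006320, the EDS1 match, was at 333.2 and 219.3 RPM in RNAi vein, against 24.7 and 35.5 RPM in WT vein (log2 3.17, standard error 0.26, adjusted p = 0.000525 from limma). Csa4G496760, the PAD4 match, was at 83.2 and 43.0 RPM in RNAi vein, against 3.43 and 3.62 RPM in WT vein (log2 3.91, standard error 0.50, adjusted p = 0.00220). In fruit their log2 fold changes were 0.69 and 0.67, and neither was called by limma, edgeR or DESeq2, with 1 at an unadjusted p under 0.05.

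Of 4 genes for the synthesis regulator CBP60g and for the systemic signal enzymes ALD1 and FMO1, 3 were called higher in vein. The share of all genes was 14%, and these genes too were chosen for change in vein. The CBP60g match Csa2G033350 was at 130.6 and 227.9 RPM in RNAi vein and 12.9 and 14.8 RPM in WT vein. The second FMO1 match, Csa6G133660, was at 2.28 and 1.84 RPM in RNAi vein and 4.09 and 3.66 RPM in WT vein (log2 -0.78, adjusted p = 0.0277 from limma), under the 2-fold limit, and with TMM scaling it was called lower. In fruit limma called 0 of these 4, with 2 at an unadjusted p under 0.05. The ALD1 match Csa2G404730 had about the same change in both tissues, with log2 1.74 in vein (adjusted p = 0.0151 from limma) and 1.76 in fruit (adjusted p = 0.216), a difference of -0.02, and edgeR's exact test and DESeq2 called it higher in fruit, while edgeR's quasi-likelihood test called 0 of the 4. Phenylalanine ammonia-lyase opens the phenylpropanoid pathway, 1 route to salicylic acid and also the route to lignin. All 10 of its genes on the list, which was chosen for change in vein, were called higher there, beside 14% of all genes. Their log2 fold changes were 2.39 to 6.46. All but Csa1G590300 were under 1 RPM in both WT vein libraries, so the sizes of their folds depend on the added 0.5 RPM. Csa6G445760, with the largest fold, was at 119.6 and 79.6 RPM in RNAi vein and 0.442 and 0.820 RPM in WT vein. In fruit limma called 0 of 10, at 0.60 to 2.60, with 9 at an unadjusted p under 0.05. There edgeR's quasi-likelihood test called 0 of these 10, its exact test 2 and DESeq2 5, the latter counts each beside 1.83% of all genes. Apart from Csa1G590300 and Csa4G008770, these genes were over 2-fold higher in RNAi fruit replicate 1 than in replicate 2. Csa6G445760 was at 53.9 and 16.6 RPM in those replicates, and at 5.42 and 3.79 RPM in WT fruit. Several of the 10 have near-consecutive identifiers, and how reads were divided between similar copies was not analysed here. The methyl esterase 1 matches and the match of the salicylic acid hydroxylase DMR6, which removes the hormone, were all called higher in vein (3 of 3, beside 14% of all genes). In fruit 0 of 3 were called by limma, both edgeR tests and DESeq2, with 0 at an unadjusted p under 0.05.

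Within this list, both RNAi vein libraries lay above both WT vein libraries for 22 of 23 genes, beside 45.1% of all genes. The list was chosen for change in these vein libraries, so that count is not independent evidence. RNAi vein replicate 1 was above replicate 2 for 18 of 23, as for the pair. The gap between those replicates was 0.89 for Csa4G063470 and 0.86 for Csa4G063480 (log2), and 9.06% and 9.74% of all genes had a larger one, the median of all genes being 0.17. In fruit both RNAi libraries lay above both WT libraries for 18 of 23 genes of the list, beside 23.2% of all genes. That share is not a like background, since the list was chosen for change in vein of the same transgenic line. Of the 23 genes, 10 are phenylalanine ammonia-lyase genes, most of them over 2-fold higher in RNAi fruit replicate 1 than in replicate 2.

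**Figure D5:**
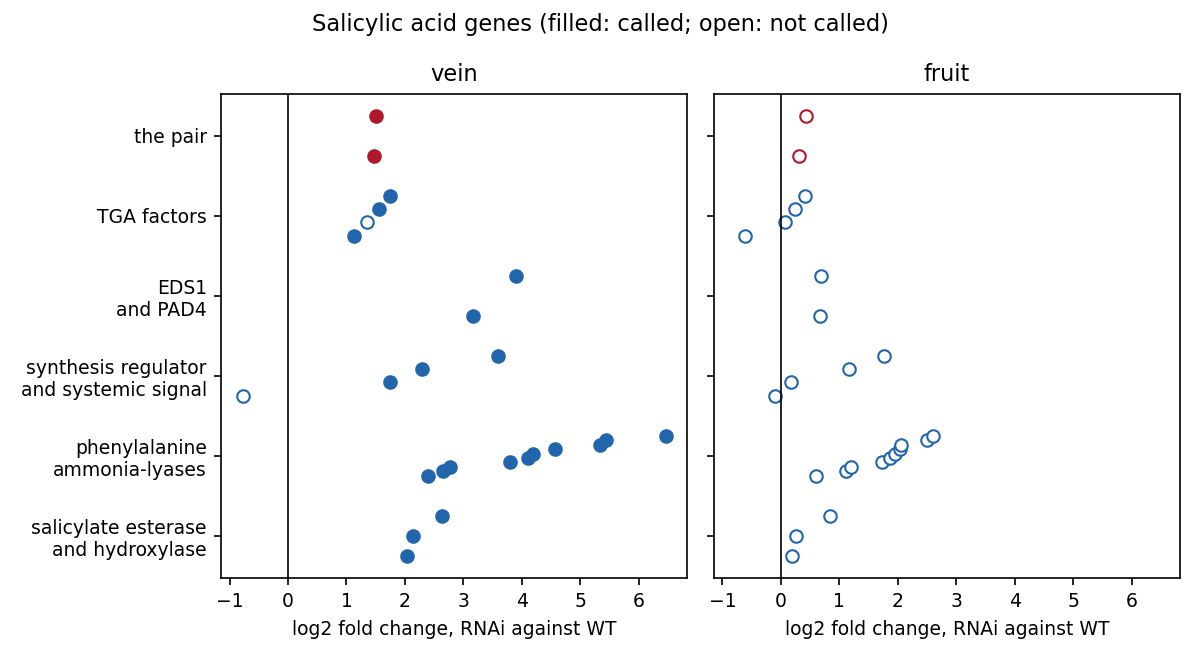
log2 fold change of RNAi against WT in vein (left) and fruit (right) for the NPR1-like pair (red) and 23 salicylic acid genes by role (blue). Filled points were called by limma and open points were not. In vein 21 of 23 points of the list are filled, and in fruit 0 of 23.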

How the data were processed

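Directional RNA libraries of 8 samples were mapped by the authors with TopHat to the cucumber genome (version 2i) and counted per gene with HTSeq-count; versions and counting settings are not given in the sources used here. The deposited values are RPM, scaled to 1000000 per library by the authors, and 100% were whole multiples of 1 read (tolerance 0.05), so reads were recovered.

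log2(RPM + 0.5) was fitted with limma 3.58.1 in R 4.3.3 (trended empirical Bayes, two-sided, 4 group means, 8 libraries) for 17778 genes with at least 1 RPM in 2 libraries, with Benjamini-Hochberg adjustment. The study used edgeR on counts; limma was used because the table holds RPM. A call needed an adjusted p under 0.05 and 2-fold (tissue difference: adjusted p only). Exact permutation tests used scipy 1.17.1.

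Alternatives were pseudocounts of 0.1 and 1, no filter, a stricter filter (14934 genes), separate fits, TMM and quantile scaling, edgeR 4.0.16 and DESeq2 1.42.0 on recovered reads, a replicate block, and leaving out each library. Named genes were the pair, the 5 measured genes on each side where called, the 5 most alike profiles and the salicylic acid list. No neighbour was called in vein or fruit, and the nearest on each side was named outside that rule, after its values were seen. Members and lists were chosen with earlier results of these data known. Columns of the study's own comparisons were not used for any test, but its list of genes changed in vein supplied the salicylic acid list.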

Additional observations from a re-analysis of the deposited data

Results flagged for a closer look

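For both genes, every RNAi vein library was above every RNAi fruit library while every WT vein library was below every WT fruit library, so in RPM the tissue difference ran in opposite directions in the genotypes. The order in RNAi plants was shared by 23.7% of all genes tested, and the order in WT plants by 67.1%, that is, by most genes. For Csa4G063470 the log2 difference, vein minus fruit, was 0.60 in RNAi plants and -0.54 in WT plants. For Csa4G063480 it was 0.65 in RNAi plants and -0.42 in WT plants. The difference between the genotypes, tested as the interaction, did not pass (adjusted p = 0.103 and 0.112 from limma), and the WT values were close to the all-gene median of -0.51. The WT difference of Csa4G063480 turned positive, the direction of RNAi plants, with TMM scaling (0.0073), quantile scaling (0.024), both edgeR tests (0.012 each) and DESeq2 (0.081).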

How the results depend on the processing

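The vein changes kept their direction under every alternative run. The calls were lost in the separate fit of the vein groups (1.46 and 1.50, adjusted p = 0.0642 and 0.0609 from limma) and without WT vein replicate 1 (1.38 and 1.37, adjusted p = 0.0628 and 0.0572). Leaving out 1 library gave 1.02 to 1.91 for Csa4G063470 and 1.07 to 1.93 for Csa4G063480, for the tissue difference 0.70 to 1.59 and 0.64 to 1.50, and for RNAi vein against RNAi fruit 0.16 to 1.05 and 0.22 to 1.08. With either RNAi vein library left out the tissue difference passed. WT vein against WT fruit of Csa4G063480 was reversed, at 0.0073 with TMM scaling, 0.024 with quantile scaling, 0.012 with edgeR's quasi-likelihood test, 0.012 with its exact test and 0.081 with DESeq2, all near 0. The cause of these changes was not tested.

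A replicate block gave 1.46 and 1.50 in vein (adjusted p = 0.0136 and 0.0110 from limma) and changed no call of the pair. The labels do not say whether same-numbered libraries belong together. Their deviations correlated at -0.11 (RNAi vein and WT vein) to 0.22 (RNAi vein and RNAi fruit). With 2 libraries a group these correlations cannot settle whether such libraries share a batch. A crossed block, chosen after seeing the data, called 3328 genes in vein and 21 in fruit. Genes called in vein numbered 3407, 2163 in the separate fit and 2106 to 5042 with a library left out. In fruit they numbered 84, against 218 in the separate fit, 363 with edgeR's exact test, 362 with DESeq2, 44 with the block and 0 to 357 with a library left out. Tissue differences numbered 2032, against 3393 with DESeq2, 1071 with the block, 1355 with the crossed block and 0 to 8195 with a library left out. With 2 libraries a group the spread rested on 4 residual degrees of freedom.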
